A study of Mus musculus with 9 samples.

Results

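The genes described here are those on mouse chromosome 18 outside the clustered protocadherin genes. A gene was a member if the deposited count table places it on chromosome 18 and its raw read counts sum to at least 70 over the 7 libraries of that table. Symbols beginning Pcdh, Rpl, Rps, Nduf, Atp5 or Snor were left out, as were Gata6, Zeb1, Egr1, Impact, Spry4, Kif20a, Smad7, Cdh2, Lmnb1, Ttr, Hdac3, Esco1 and Pdgfrb. The table lists 55401 genes; 1399 lie on chromosome 18, of which 386 reached the count minimum, 49 were left out by symbol and 337 were members. Of the members 277 are protein-coding genes, 19 are processed pseudogenes, 8 are lincRNAs and 6 are antisense RNAs. Just inside the minimum lay Gm7701, Mocos and Sall3 with 70 counts each, and just outside it lay Gm2531 with 69, 4930549G23Rik with 65 and Pcdhga11 with 62. The rule therefore used the level of a gene summed over all groups, in which deeper libraries weigh more, and used no difference between groups.

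The study asked what a deletion upstream of Xist does in XEN cells, stem cells of the extra-embryonic endoderm, here female and hybrid between Mus musculus molossinus and Mus musculus. WT_EV libraries (n = 3) are wild type. DXp libraries (n = 2, titled D1) have the genotype label paternal Xist deletion, and DXp_DXm libraries (n = 2, titled D3) have the label homozygous Xist deletion. The labels give 2 biological replicates per deletion and name no separate cultures for WT_EV, so each p-value covers the spread between these libraries, which may be technical in part. If D1 and D3 are 1 line each, line and genotype cannot be told apart. The WT_clone libraries were not analysed here. Xist, the gene the labels name, had 12244, 22588 and 26048 counts in WT_EV, 400096 and 338652 in the libraries labelled DXp, and 131675 and 227870 in those labelled DXp_DXm. Its RNA was thus higher in every deletion library than in any WT_EV library, so the Xist level does not check the deletion labels, and the group names below mean the libraries so labelled.

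Xist RNA coats and silences one X chromosome of a female cell, whereas chromosome 18 is one of the smaller mouse autosomes. Its genes have little in common beyond their position: they include the signal carriers Smad2 and Smad4, the tumour suppressor Apc, and many genes for vesicle transport, RNA handling and protein breakdown. For most autosomal genes RNA output follows the number of gene copies, so a median over many genes of one chromosome is a common summary of that chromosome's output. The DNA of these cells was not measured in the files used here, and in bulk RNA fewer cells of a type and less RNA per cell cannot be told apart.

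Library totals ran from 14352719 to 29335803 counts. Levels are given as CPM, the usual depth-scaled read count, here per TMM-adjusted library total. The 10 XEN marker genes summed to 17700 to 25800 CPM in WT_EV, 5240 to 12100 in DXp and 7510 to 10100 in DXp_DXm; none was at 0 in every library of a group, though Col4a1 was at 0 in 1 DXp library. The markers did not move together: Lama1 went from 9330 to 10700 CPM in WT_EV to 2300 to 5030 in DXp, while Dab2 went from 523 to 793 up to 1150 to 2600. Markers of pluripotent cells, trophoblast and fibroblasts summed to at most 4.86 CPM in any library. The kind of RNA differed with the groups: Rn7sk, which has no poly(A) tail, had at least 157188 counts in each WT_EV library and at most 7 in each library of either deletion. Replication-dependent histone genes took 0.984% to 2.47% of counts in WT_EV and at most 0.00686% in the deletion libraries. In DXp against WT_EV the median log2 change over all genes went from 2.03 for transcripts under 42% GC to -3.44 for those over 54%, and members were lower in GC (median 46.7%) than all genes tested (48.7%). Counts of members that passed against WT_EV, and the members' medians, are therefore given also with offsets for GC content and length, fitted per library to autosomal genes. Shares of counts, CPM levels and what rests on these levels, such as the overlap of libraries, were not corrected. The labels name a pair of library kits without saying which library had which, so library preparation and genotype cannot be told apart in these comparisons.

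RNA from chromosome 18 was highest in the DXp libraries. Members held 4.03% and 4.11% of autosomal counts in the DXp libraries, 2.47% and 2.59% in the DXp_DXm libraries, and 1.54%, 1.60% and 1.71% in the WT_EV libraries. No group overlapped another. The mean share was 4.07% ± 0.0551 (SD, n = 2) in DXp, 2.53% ± 0.0890 (n = 2) in DXp_DXm and 1.62% ± 0.0832 (n = 3) in WT_EV. An exact two-sided permutation test over libraries gave p = 0.1 for DXp against WT_EV and for DXp_DXm against WT_EV, and p = 0.333 for DXp_DXm against DXp, each the smallest value these group sizes allow. Hspa9, Kif5b, Tmed7, Csnk1a1 and Snx2, the 5 members with the most counts, were then left out, and the means in the same order were 3.41%, 2.15% and 1.44%.

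A value per library that gives each gene equal weight showed the same order. For each library it is the median over the 336 tested members of the log2 deviation from the mean of the 3 groups, corrected for GC content and length, minus the same median over all autosomal genes. It was 0.40 in both DXp libraries, which is 1.32 times the autosomal median. In DXp_DXm it was -0.13 and -0.11, and in WT_EV -0.35, -0.36 and -0.24. Because zero is the mean of the 3 groups, a high value in one group lowers the others, and only differences between libraries can be read.

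**Figure D1:**
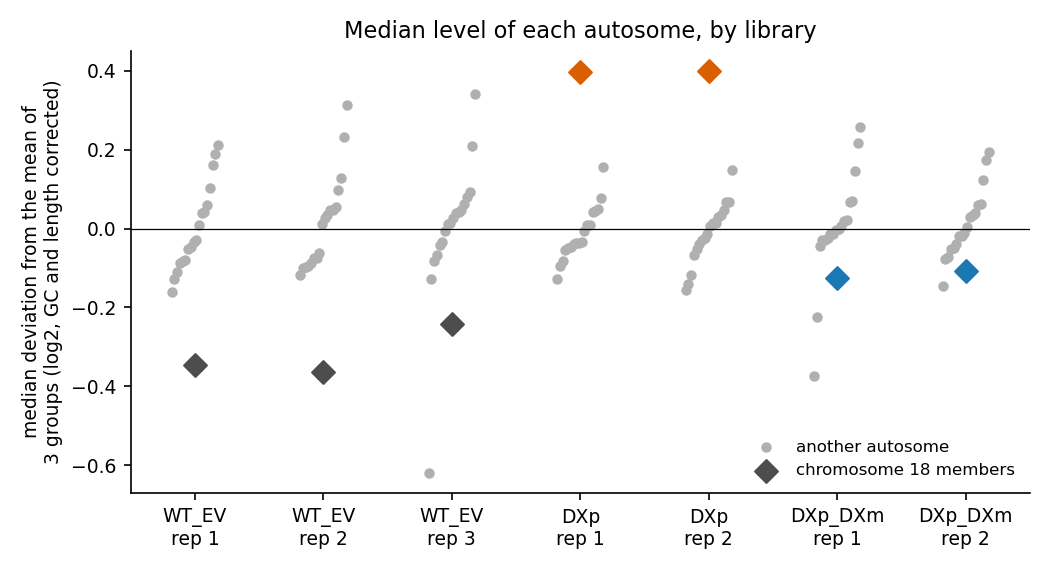
Median log2 deviation of each autosome (vertical axis, corrected for GC content and length) in each of the 7 libraries (horizontal axis); diamonds are the chromosome 18 members and grey points the other autosomes. The diamonds lie at 0.40 in both DXp libraries, above every other autosome there, and below 0 in the WT_EV and DXp_DXm libraries.

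In the ranks of autosomes, here and below, chromosome 18 was represented by its members only, while the others kept all their tested genes. In both DXp libraries chromosome 18 ranked first of 19 autosomes. The next was chromosome 12 at 0.16 and 0.15. In WT_EV chromosome 18 ranked last in replicates 1 and 2 and next to last in replicate 3, where chromosome 19 lay at -0.62. Chromosome 18 ranked 17 and 18 of 19 in the DXp_DXm libraries. A rank in 1 library also depends on the other groups, and the high DXp values lower those of WT_EV and DXp_DXm. Without the correction the values were 0.72 and 0.73 in DXp, 0.03 and 0.14 in DXp_DXm, and -0.84, -0.87 and -0.65 in WT_EV, so the sign for DXp_DXm depended on it while the order of the groups did not.

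On chromosome 18, pairs of libraries within a group hardly differed. The corrected chromosome 18 median differed by 0.01 between the DXp libraries, by 0.00 between the DXp_DXm libraries and by -0.01 to 0.08 between the WT_EV libraries. Corrected medians of other autosomes did differ within a group. Between WT_EV replicates 3 and 2 they ran from -0.92 to 0.44, and between the DXp_DXm libraries from -0.09 to 0.47. Between the DXp libraries they ran from -0.09 to 0.09. Between groups, chromosome 18 stood at -0.57 to -0.50 in the 4 pairs of a DXp_DXm with a DXp library, a ratio of 0.675 to 0.709. In the 2 pairs with DXp_DXm replicate 1 another autosome came close, at -0.55 and -0.51; in the 2 pairs with replicate 2 the lowest other autosome was at -0.10. Against WT_EV the DXp libraries were higher by 0.62 to 0.82 in all 6 pairs, and chromosome 18 stood above every other autosome in each (highest other 0.16 to 0.57). The DXp_DXm libraries were higher than WT_EV by 0.13 to 0.23, and in each of those 6 pairs another autosome was higher still (highest other 0.26 to 0.87).

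DXp lay above DXp_DXm in every 10 Mb window. Cut into 10 Mb windows by gene start, 9 windows held at least 10 tested members, and in 9 of 9 both DXp libraries lay above both DXp_DXm libraries. In the window from 20 to 30 Mb, where DXp was highest, the corrected medians of 25 members were 0.56 and 0.61 in DXp, -0.09 and -0.11 in DXp_DXm, and -0.52, -0.53 and -0.10 in WT_EV. In the window from 10 to 20 Mb, where DXp was lowest, the medians of 21 members were 0.05 and 0.13 in DXp, -0.25 and -0.24 in DXp_DXm, and -0.08, 0.03 and 0.20 in WT_EV. With the correction DXp and WT_EV overlapped there, and in that window WT_EV replicate 3 was the highest library. In 5 Mb windows, the 18 members from 10 to 15 Mb put DXp at 0.212 and 0.315, above WT_EV at -0.151, -0.038 and 0.072. Without the correction the 10 to 20 Mb window had DXp at 0.55 and 0.72 and WT_EV at -0.67, -0.74 and -0.53. DXp was then highest from 40 to 50 Mb, at 1.08 and 1.42. Its lowest windows were 80 to 90 Mb in replicate 1 (0.29) and 70 to 80 Mb in replicate 2 (0.34).

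**Figure D2:**
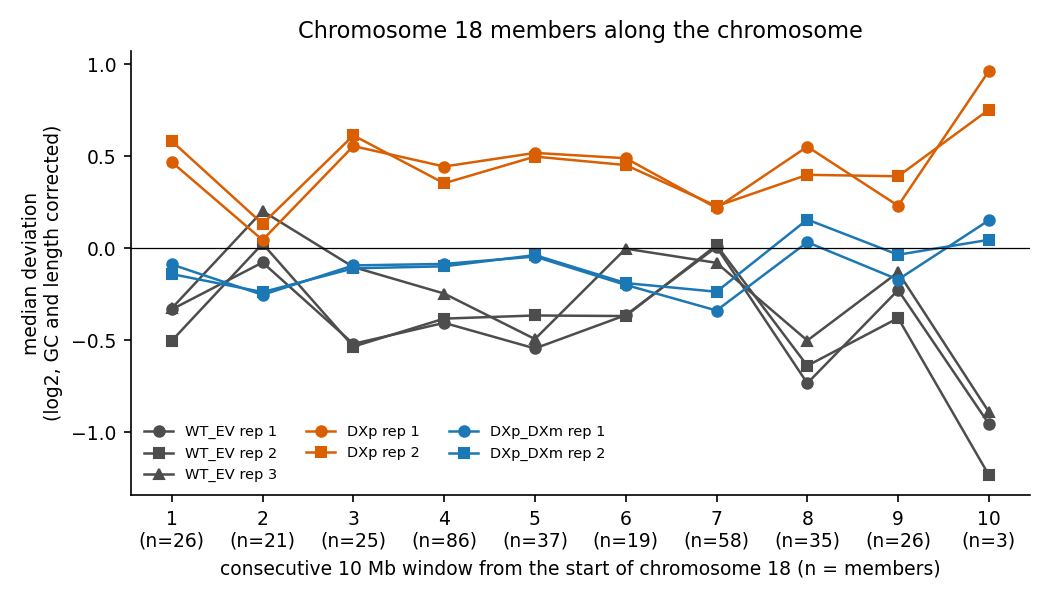
Median log2 deviation of chromosome 18 members (vertical axis, corrected for GC content and length) in consecutive 10 Mb windows (horizontal axis, with the number of members), 1 line per library. Both DXp lines run above both DXp_DXm lines in every window; the last window holds 3 members.

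By the corrected medians WT_EV was lowest between 70 and 80 Mb, at -0.73, -0.64 and -0.50 over 35 members. There DXp_DXm stood at 0.03 and 0.16 and DXp at 0.55 and 0.40. In the window from 60 to 70 Mb the 58 members put WT_EV at 0.01, 0.02 and -0.08, above DXp_DXm at -0.34 and -0.24. So with the correction the place of WT_EV relative to DXp_DXm changed along the chromosome, while DXp stayed above DXp_DXm. Without the correction every WT_EV library lay below both DXp_DXm libraries in each window. From 60 to 70 Mb, WT_EV then stood at -0.76, -0.92 and -0.59 and DXp_DXm at -0.13 and 0.05. WT_EV was then lowest from 40 to 50 Mb in replicates 1 and 3 (-1.55 and -1.22) and from 0 to 10 Mb in replicate 2 (-1.54). For the corrected medians, the central 95% of 236 windows on other autosomes of the same library served as background. It ran from -0.35 to 0.39 in DXp replicate 1 and from -0.67 to 0.52 in WT_EV replicate 3. Of the 9 chromosome 18 windows 6 lay outside it in DXp replicate 1 and 4 in DXp replicate 2, against 1 in WT_EV replicate 1 and 0 in each other library. These counts depend on that width and on the mean of the groups, so they do not compare sizes of deviation between libraries.

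For DXp_DXm against DXp the window medians of the fitted log2 changes, relative to the autosomal median, ran from -0.85 (40 to 50 Mb, 37 members) to -0.22 (80 to 90 Mb, 26 members), and with offsets from -0.73 to -0.38. The central 95% of other windows covered -0.54 to 0.53 without and -0.40 to 0.53 with offsets. No other autosomal window of 236 was as low as the 40 to 50 Mb window without offsets, whereas 63 were at or below the 80 to 90 Mb window. With offsets at most 8 other windows were at or below any of the 9. In 5 Mb windows, 13 of 14 had both DXp libraries above both DXp_DXm libraries.

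The 2 deletions were alike in having next to no Rn7sk or histone counts, though the median over all genes still ran from -0.44 in the lowest GC class to 0.30 in the class from 48% to 54%. Over the 336 tested members the median log2 change in DXp_DXm against DXp was -0.58, beside 0.02 over all 15331 genes tested. Relative to the autosomal median this was -0.61, the lowest of 19 autosomes; chromosome 12 followed at -0.35 and chromosome 19 was highest at 0.42. With offsets chromosome 18 stood at -0.56. Of the members 266 (79.2%) lay below the autosomal median, against 49.2% of other autosomal genes. The middle of the distribution moved with its edges: relative to the autosomal median the 10th percentile was -1.50, the 25th -1.05, the 75th -0.07 and the 90th 0.47, against -1.01, -0.49, 0.61 and 1.23 for other autosomal genes.

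**Figure D3:**
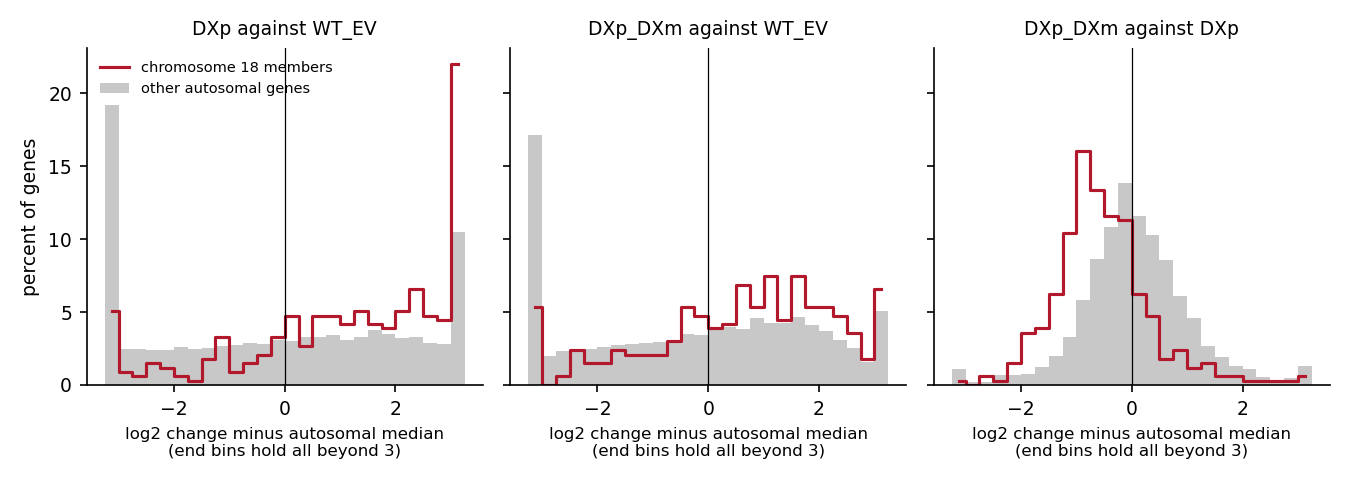
Percent of genes (vertical axis) by log2 change minus the autosomal median (horizontal axis) for the 336 chromosome 18 members (red line) and other autosomal genes (grey), in the 3 comparisons. In DXp_DXm against DXp the members' median is -0.61 and 79.2% lie below 0.

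The shift was seen in each class of level and of GC content, and was smaller for short and non-coding members. Members under 10 CPM lay 0.51 below other autosomal genes of that level, members of 10 to 50 CPM lay 0.55 below and members over 50 CPM lay 0.75 below. Over the 4 GC classes the difference ran from -0.70 to -0.57. Protein-coding members differed by -0.74 and the 60 other members by -0.06, or -0.65 and -0.33 with offsets. Members shorter than 3 kb differed by -0.23, longer ones by -0.65 and -0.69.

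Few single members passed the test between the deletions. By edgeR's quasi-likelihood test at an adjusted p under 0.05, 0 members rose and 4 fell (1.19% of 336), where 0.444% of all genes passed (0.28% higher and 0.163% lower). At an unadjusted p under 0.05, 117 members (34.8%) were lower and 11 (3.27%) higher, against 7.85% and 12.3% of other autosomal genes, and 8.81% and 12% of all genes. The libraries of DXp_DXm lay wholly below those of DXp for 189 members (56.2%, where 23.2% of all genes did so) and wholly above for 25 (7.44%, against 27.2%). The number that passed moved with the settings more than the direction did. DESeq2 put 80 members lower (4.12% of all genes) and 2 higher (3.59%), 82 in all (7.71%). Without a filter on low counts edgeR put 60 lower (2.11% of all genes) and 5 higher (3.07%), 65 in all (5.18%). With offsets it put 2 lower (0.13%) and 0 higher (0.144%), beside 0.274% of all genes in either direction. Leaving out 1 WT_EV library gave 0 to 39, counted for members only. The 4 members that passed are described next; each of them still passed without WT_EV replicate 3 and missed the threshold in the 6 fits without another library, with adjusted p-values of 0.0568 to 0.271.

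Csnk1a1, which encodes casein kinase 1 alpha, a kinase that marks beta-catenin for breakdown, lies at chr18:61555274-61590061 (mm10). It had 1541 and 1687 CPM in DXp, 561 and 656 in DXp_DXm, and 166, 184 and 186 in WT_EV. The 3 groups did not overlap, and DXp_DXm lay between the others. The log2 change of DXp_DXm against DXp was -1.41 (SE 0.24, edgeR adjusted p = 0.0424), or -1.06 (SE 0.20, adjusted p = 0.0617) with offsets.

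Zfp397, a zinc finger gene at chr18:23954692-23964673, had 231 and 299 CPM in DXp, 79.5 and 86.3 in DXp_DXm, and 17.1, 24.2 and 19.3 in WT_EV. Here too the groups stood apart in the same order. It fell by 1.67 on the log2 scale in DXp_DXm against DXp (SE 0.27, edgeR adjusted p = 0.0423), and with offsets the adjusted p was 0.0636.

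Chmp1b encodes a subunit of ESCRT-III, the filament that pinches membranes off, and lies at chr18:67205366-67207889. Its levels were 180 and 194 CPM in DXp, 68.8 and 75.4 in DXp_DXm, and 24.6, 22.9 and 26.6 in WT_EV. DXp was above both other groups in every library. The log2 change of DXp_DXm against DXp was -1.37 (SE 0.24, edgeR adjusted p = 0.0464; 0.0621 with offsets). Chmp1b is annotated as a retrogene and its exon overlaps a gene on the opposite strand, so its count is uncertain.

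Garem1, an adaptor in signalling from growth factor receptors to MAP kinase, lies at chr18:21127201-21300138. It differed from these 3: DXp had 43.7 and 29.9 CPM, DXp_DXm 8.38 and 10.5, and WT_EV 10.5, 11.1 and 10.6. Only DXp stood apart, and DXp_DXm overlapped WT_EV. Its log2 change of DXp_DXm against DXp was -1.96 (SE 0.33, edgeR adjusted p = 0.0424), and it still passed with offsets (-2.17, SE 0.30, adjusted p = 0.0361). Slc39a6, a zinc transporter, passed only with offsets (-1.67, SE 0.26, adjusted p = 0.0439), with 125 and 97.2 CPM in DXp against 50.1 and 34.7 in DXp_DXm. No library overlapped between those groups.

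Against WT_EV most members changed, as did most genes. In DXp 230 of 336 members passed (68.5%, where 72.3% of all genes did). The direction set them apart: 181 rose (53.9%, against 32.2% of all genes) and 49 fell (14.6%, against 40.1%). The median log2 change of members was 1.2, beside -0.35 over all genes tested. With offsets 187 passed (55.7%, where 51.4% of all genes did), 154 higher (25.3% of all genes) and 33 lower (26% of all genes), and the medians were 0.83 and -0.05. Offsets did not remove the whole GC trend. From the lowest to the highest GC class the all-gene medians with offsets were 0.26, 0.06, -0.04 and -0.51. Those of members were 1.12, 0.60, 0.89 and 1.25. By CPM, which holds no offsets, 198 members (58.9%, against 36.8% of all genes) lay above every WT_EV library in DXp and 67 (19.9%, against 45.2%) below. Relative to the autosomal median the members' median was 1.61 without and 0.90 with offsets, the highest of 19 autosomes in both. The next autosome with offsets was at 0.15, and chromosome X stood at 1.51 without and 0.52 with offsets.

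In DXp_DXm against WT_EV, which shares the WT_EV libraries with the comparison before it, 211 members passed (62.8%, where 66.8% of all genes did). Of these 153 rose (45.5%, against 30.9% of all genes) and 58 fell (17.3%, against 36%). The median log2 change was 0.70, beside -0.15 over all genes. With offsets 142 passed (42.3%, near the 43% of all genes), 94 higher (21.6% of all genes) and 48 lower (21.4% of all genes), with medians of 0.22 and 0.02. Relative to the autosomal median, 0.90 without offsets tied with chromosome 1 as highest of the autosomes, and 0.22 with offsets came after chromosomes 1 and 19. Chromosome X was above both values, at 1.17 and 0.41. The rise with offsets was not seen in every class of member. Members differed from other autosomal genes by 0.79 under 10 CPM, by 0.16 at 10 to 50 CPM and by -0.02 over 50 CPM. From the lowest to the highest GC class the differences were 0.30, -0.05, 0.26 and 0.93. The all-gene median with offsets still ran from 0.30 under 42% GC to -0.39 over 54%. By CPM, again without offsets, 173 members (51.5%, against 36.4% of all genes) lay above every WT_EV library in DXp_DXm and 80 (23.8%, against 41.8%) below. The mean level was lowest in WT_EV and highest in DXp in 175 members (52.1%), an order that 27.1% of other autosomal genes showed.

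Of the members that passed in DXp against WT_EV, 122 rose and 22 fell both without and with offsets, and 5 passed in opposite directions. In DXp_DXm 70 rose and 28 fell in both, and 7 passed in opposite directions. Passing under both fits was counted for members only, so no share of all genes stands beside these counts. The genes below are grouped by lists of chromosome 18 genes with related roles. Counts in the text are of members that passed without offsets and then with them. They stand beside the shares of all genes given above, in DXp 32.2% higher and 40.1% lower (25.3% and 26% with offsets). In DXp_DXm those shares are 30.9% and 36% (21.6% and 21.4%). The lists hold chromosome 18 genes only, so the shares of all tested members are the closer background. Those were 53.9% higher and 14.6% lower in DXp (45.8% and 9.82% with offsets). In DXp_DXm they were 45.5% and 17.3% (28% and 14.3%).

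Genes of TGF-beta signalling, in which SMAD proteins carry the signal of activated receptors to the nucleus, had 6 tested members. In DXp 5 rose and 1 fell (4 and 0 with offsets), with a median log2 change of 1.54. In DXp_DXm 4 rose and 1 fell (4 and 0), with a median of 1.12. Smad4, the SMAD shared by the TGF-beta and BMP branches, had 61.7, 64.1 and 66.6 CPM in WT_EV, 309 and 441 in DXp, and 151 and 179 in DXp_DXm. No groups overlapped. It rose in DXp by 2.55 on the log2 scale (SE 0.23, edgeR adjusted p = 9.66e-06; 3.05 with offsets) and in DXp_DXm by 1.36 (SE 0.23, adjusted p = 0.000533; 1.53 with offsets).

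Smad2, a SMAD that receptors phosphorylate directly, did not follow that order. It had 117, 115 and 101 CPM in WT_EV, 320 and 363 in DXp, and 282 and 332 in DXp_DXm. The 2 deletions overlapped above WT_EV (log2 change between them -0.16, SE 0.23). Its rise against WT_EV, 1.62 in DXp and 1.47 in DXp_DXm, was 0.15 and 0.18 with offsets (edgeR adjusted p = 0.571 and 0.514). Nedd4l, a ubiquitin ligase that limits SMAD signalling, rose in both deletions with and without offsets and had 41.9 and 42.8 CPM in DXp against 32.1 and 51.3 in DXp_DXm. The DXp values lay within the DXp_DXm range. Ctdp1, a phosphatase of RNA polymerase II, fell by 2.41 and 2.68 without offsets; with offsets it did not pass (0.55 and -0.01).

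Among 10 WNT and catenin members 7 rose and 0 fell in DXp (3 and 1 with offsets), and 5 rose and 1 fell in DXp_DXm (1 and 1). The kinase Csnk1a1 rose in DXp by 3.17 (SE 0.22, edgeR adjusted p = 4.46e-06; 1.33 with offsets), and Csnk1g3, a kinase of the same family, by 3.0 (1.70 with offsets). Apc, the scaffold of the complex that destroys beta-catenin, had 115, 115 and 119 CPM in WT_EV, 407 and 432 in DXp, and 225 and 187 in DXp_DXm. The groups did not overlap. Apc rose by 1.85 in DXp, but with offsets the change was 0.17 (adjusted p = 0.520), and in DXp_DXm it was 0.82 without and -0.53 with offsets (adjusted p = 0.0640). Tcf4, an E-protein transcription factor that the list counts although it is not the WNT effector that shares its alias, rose by 2.20 in DXp and did not pass with offsets (0.16). Without Tcf4 the list has 1 fewer member that rose in each deletion without offsets.

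**Figure D4:**
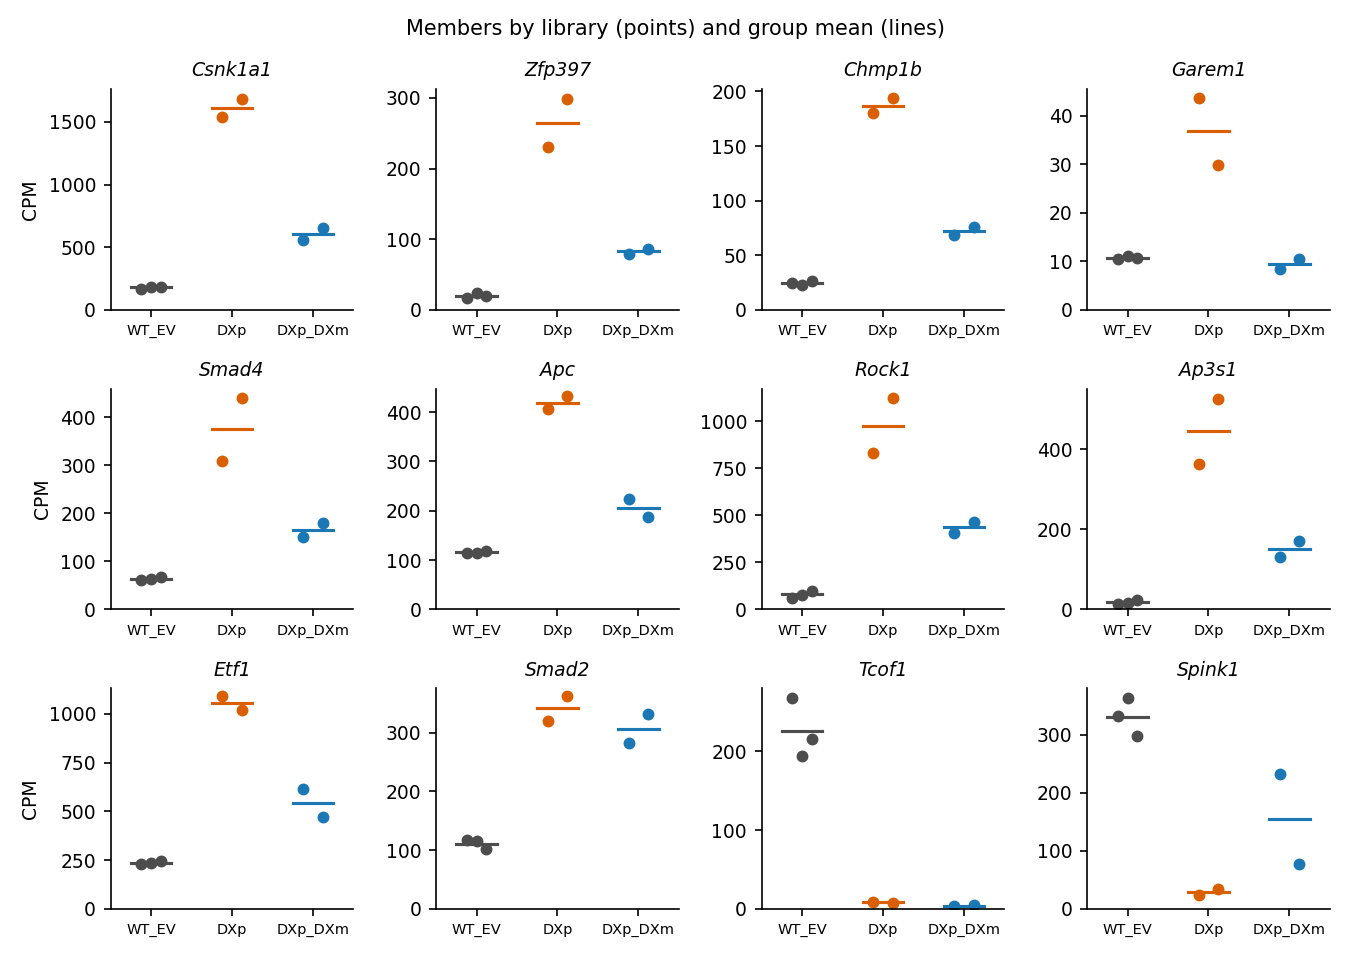
CPM (vertical axes, each from 0) of 12 members by group; points are libraries and lines are group means. Csnk1a1, Zfp397, Chmp1b, Smad4, Apc, Rock1, Ap3s1 and Etf1 are highest in DXp with DXp_DXm between DXp and WT_EV; Garem1 is high only in DXp, Smad2 is alike in both deletions, and Tcof1 and Spink1 are highest in WT_EV.

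Of 30 members for chromatin and transcription 15 rose and 5 fell in DXp (13 and 1 with offsets), and 12 rose and 6 fell in DXp_DXm (7 and 6). Matr3, a nuclear matrix protein that binds RNA, had 96.2, 115 and 91.8 CPM in WT_EV, 874 and 1385 in DXp, and 483 and 558 in DXp_DXm. DXp was highest in both libraries. Matr3 rose in DXp by 3.49 (SE 0.26, edgeR adjusted p = 4.72e-06) and still by 1.13 with offsets. Pias2, a SUMO ligase, and Rprd1a, which binds the tail of RNA polymerase II, rose in DXp by 2.54 and 3.74 (1.30 and 2.19 with offsets). Zfp532, a zinc finger gene, went the other way and fell in both deletions under both fits.

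RNA processing had 18 members, of which 12 rose and 0 fell in DXp (12 and 1 with offsets) and 10 rose and 1 fell in DXp_DXm (5 and 2). Pura, which binds single-stranded nucleic acid, had 16.7, 16 and 13.6 CPM in WT_EV, 172 and 147 in DXp, and 62.4 and 64.6 in DXp_DXm. These levels did not overlap. Dcp2, the enzyme that removes the mRNA cap, rose in DXp by 3.07 (1.19 with offsets), and Mex3c, a ubiquitin ligase that binds RNA, by 2.76 (2.23 with offsets).

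In translation, 13 members split: 7 rose and 4 fell in DXp (5 and 3 with offsets), and 5 rose and 4 fell in DXp_DXm (1 and 3). Etf1, the factor that recognises stop codons, had 231, 235 and 244 CPM in WT_EV, 1090 and 1021 in DXp, and 613 and 472 in DXp_DXm. It was higher in DXp than in any other library. Paip2, an inhibitor of the poly(A)-binding protein, and Riok3, a kinase of the RIO family, rose in DXp by 3.18 and 3.06 (1.61 and 0.86 with offsets).

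Tcof1, which encodes treacle, a factor for ribosomal RNA synthesis, fell the most among translation genes. It had 268, 194 and 215 CPM in WT_EV, 8.46 and 7.93 in DXp, and 4.02 and 4.32 in DXp_DXm. WT_EV lay far above both deletions, and DXp above DXp_DXm. The log2 change was -4.78 in DXp (SE 0.29, edgeR adjusted p = 4.46e-06) and -5.76 in DXp_DXm (SE 0.31, adjusted p = 5.37e-06), or -1.82 and -2.95 with offsets. The transcript is 58.2% GC. Rbfa, a mitochondrial ribosome factor, fell by 3.61 in DXp without offsets and did not pass with them (0.10, adjusted p = 0.810).

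Membrane traffic had 28 tested members, of which 22 rose and 2 fell in DXp (13 and 1 with offsets), and 15 rose and 2 fell in DXp_DXm (7 and 6). Ap3s1, a subunit of the AP-3 coat that sorts cargo to lysosomes, had 13.2, 16.1 and 23.9 CPM in WT_EV, 363 and 526 in DXp, and 132 and 171 in DXp_DXm. The 3 groups stood far apart. Ap3s1 rose in DXp by 4.65 (SE 0.32, edgeR adjusted p = 4.46e-06) and by 3.30 with offsets. It rose in DXp_DXm by 3.09 (2.0 with offsets).

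Tmed7, a cargo receptor between endoplasmic reticulum and Golgi, had 102, 116 and 113 CPM in WT_EV, 1588 and 1715 in DXp, and 784 and 730 in DXp_DXm. DXp_DXm lay between the other groups. Tmx3, a thiol oxidoreductase of the endoplasmic reticulum, rose in DXp by 4.21 and in DXp_DXm by 2.94 (1.86 and 1.38 with offsets). Rab27b, a GTPase of secretory vesicles named here after its values were seen, was the 1 member not tested: 367 of its 381 counts came from DXp replicate 1.

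Of 13 matrix and cytoskeleton members 8 rose and 0 fell in DXp (9 and 0 with offsets), and 8 rose and 0 fell in DXp_DXm (6 and 0). Rock1, the kinase that drives actomyosin contraction, had 62.0, 78.4 and 95.9 CPM in WT_EV, 831 and 1121 in DXp, and 406 and 466 in DXp_DXm. Groups were ordered as for Csnk1a1, without overlap. Rock1 rose in DXp by 3.63 (1.40 with offsets) and in DXp_DXm by 2.47 (0.87 with offsets). Sema6a, a membrane-bound semaphorin, rose in DXp by 2.10 (1.66 with offsets).

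**Figure D5:**
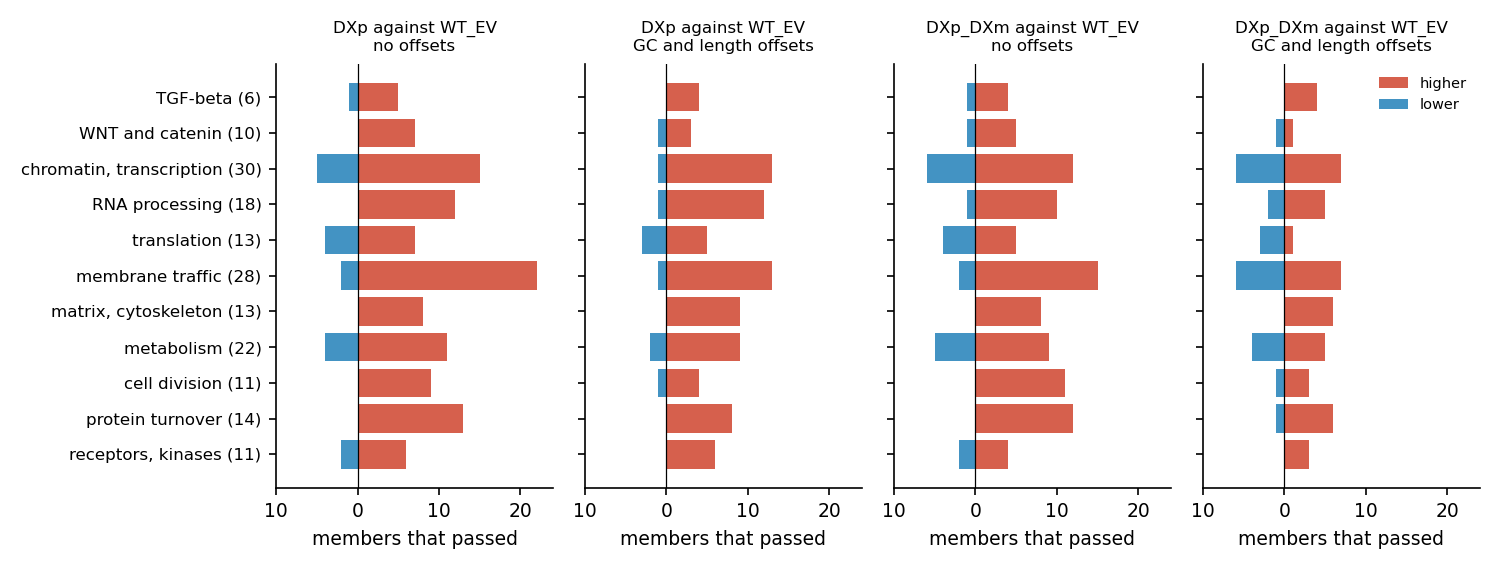
Number of members that passed (horizontal axes, adjusted p under 0.05; higher to the right, lower to the left) in 11 lists of chromosome 18 genes, with the number tested in brackets, for each deletion against WT_EV without and with GC and length offsets. Of 28 membrane traffic members 22 are higher in DXp (13 with offsets), and matrix and cytoskeleton has none lower.

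Protein turnover had 14 members, of which 13 rose and 0 fell in DXp (8 and 0 with offsets) and 12 rose and 0 fell in DXp_DXm (6 and 1). Ndfip1, an activator of NEDD4 ubiquitin ligases, had 14.6, 19.5 and 24.3 CPM in WT_EV, 374 and 429 in DXp, and 124 and 187 in DXp_DXm. It was higher in every DXp library than in any other. Cul2, the scaffold of a ubiquitin ligase that turns over HIF1 alpha, and Fem1c, which selects substrates for such a ligase, rose in DXp by 3.29 and 3.41 (1.68 and 1.70 with offsets). Trim36, a ubiquitin ligase, was low in WT_EV, with 0.225, 0.169 and 0.300 CPM, and reached 16.5 and 13.6 in DXp and 4.60 and 5.34 in DXp_DXm. Its WT_EV levels rest on 4, 4 and 5 counts, so the size of the rise is uncertain.

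All 11 cell division members rose in DXp_DXm without offsets, against 9 in DXp. With offsets 3 rose and 1 fell in DXp_DXm, and 4 rose and 1 fell in DXp. Seh1l, a nucleoporin, rose in DXp by 3.21 (1.72 with offsets), while the centrosome gene Cep192 rose by 1.95 and did not pass with offsets (0.29). Of 22 members for mitochondria and metabolism 11 rose and 4 fell in DXp (9 and 2 with offsets), and 9 rose and 5 fell in DXp_DXm (5 and 4). Galnt1, which starts O-linked sugar chains, and B4galt6, a lactosylceramide synthase, rose in DXp by 2.66 and 2.49 (1.40 and 1.58 with offsets). Aldh7a1, an aldehyde dehydrogenase of lysine breakdown, had 60.4, 56.6 and 68.4 CPM in WT_EV, 16.2 and 19.5 in DXp, and 11.7 and 15.1 in DXp_DXm. It fell in both deletions under both fits.

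Of 11 receptor and kinase members 6 rose and 2 fell in DXp (6 and 0 with offsets), and 4 rose and 2 fell in DXp_DXm (3 and 0). Map3k2, a MAP kinase kinase kinase, rose in DXp by 4.03 (1.70 with offsets). Ptpn2, a tyrosine phosphatase that damps JAK signalling, rose by 1.92 without offsets and did not pass with them (0.39). Camk2a, a calcium-dependent kinase known from neurons, was low throughout, with 0.507, 0.422 and 0.420 CPM in WT_EV, 0.811 and 3.48 in DXp, and 10.1 and 3.50 in DXp_DXm. The 2 libraries of each deletion differed by more than 2-fold.

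The members named next, outside the lists, were chosen for the size of their rise in DXp, and those low in WT_EV reached the count minimum through the deletion libraries. Zadh2, an oxidoreductase gene, had 0.563, 0.633 and 0.300 CPM in WT_EV, 23.6 and 6.75 in DXp, and 15.3 and 6.52 in DXp_DXm. Its libraries within each deletion differed widely, and the 2 deletions overlapped. Onecut2, a transcription factor of liver and pancreas, had 0.127 to 0.300 CPM in WT_EV, 12.7 and 14.2 in DXp, and 3.94 and 2.83 in DXp_DXm. Gnal, a G protein subunit, Prelid2, of a lipid transfer protein family, and Igip rose in DXp by 3.61, 3.10 and 4.42 (3.22, 3.23 and 2.89 with offsets).

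Colec12, a scavenger receptor with a collagen-like domain, ran against the order of the groups. It had 0.394, 0.253 and 0.180 CPM in WT_EV, 7.41 and 11.5 in DXp, and 14.6 and 19.9 in DXp_DXm. DXp_DXm was highest. Its log2 change against WT_EV was 5.07 in DXp and 5.94 in DXp_DXm (edgeR adjusted p = 9.02e-06 and 9.30e-06), and between the deletions it did not pass (0.87, adjusted p = 0.267). Nrep, a regulator of TGF-beta expression, likewise had more in DXp_DXm (28.5 and 19.3 CPM) than in DXp (11.2 and 13.6), a change of 0.95 that did not pass (adjusted p = 0.234).

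Fewer members fell. Spink1, a secreted trypsin inhibitor, was the member with the highest level per length (236 CPM per kb). It had 332, 363 and 298 CPM in WT_EV, 24.5 and 34.4 in DXp, and 233 and 77.4 in DXp_DXm. WT_EV was highest, and DXp lowest. Spink1 fell in DXp by 3.49 (SE 0.46, edgeR adjusted p = 9.06e-05; 3.79 with offsets), and the rise of 2.40 in DXp_DXm over DXp did not pass (SE 0.46, adjusted p = 0.0583).

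Sh3tc2, a gene of Schwann cell endosomes, had 40.0, 59.0 and 55.9 CPM in WT_EV, 5.29 and 3.02 in DXp, and 5.18 and 4.79 in DXp_DXm. Both deletions lay below WT_EV and overlapped each other. Lipg, a secreted lipase of endothelium, fell in DXp by 2.77 and in DXp_DXm by 1.41 (2.01 with offsets in DXp; -1.01, adjusted p = 0.0585, in DXp_DXm). Vaultrc5, a vault RNA made by RNA polymerase III and without a poly(A) tail, had 6.87, 3.50 and 4.98 CPM in WT_EV and at most 0.0415 in the deletion libraries, a pattern like that of Rn7sk. Smim3, Cystm1, Apcdd1 and Pqlc1 also fell in DXp_DXm under both fits, by 2.24, 2.15, 1.75 and 1.88 without offsets.

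Among the members highest per length after Spink1 were Snx2, a sorting nexin of endosomes, Hspa9, the mitochondrial HSP70 chaperone, Etf1, and Kif5b, a kinesin motor. Snx2 had 323, 274 and 365 CPM in WT_EV, 1003 and 1007 in DXp, and 519 and 614 in DXp_DXm. No groups overlapped. Its rise in DXp, 1.65, was 0.52 with offsets (edgeR adjusted p = 0.0509). Hspa9 had 519, 513 and 530 CPM in WT_EV, 1896 and 903 in DXp, and 897 and 795 in DXp_DXm, so 1 DXp library lay close to DXp_DXm.

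The 49 chromosome 18 genes left out by symbol, all tested, had a median log2 change of -1.18 in DXp_DXm against DXp (-1.39 with offsets), below the -0.58 of members. Against WT_EV their medians were -0.26 in DXp (0.96 with offsets) and -1.47 in DXp_DXm (-0.76 with offsets), of opposite sign to the members' medians in all but DXp with offsets. Exons of 100 of 337 members overlap those of another annotated gene, 81 of them on the opposite strand. Among 61 members listed for the text, this holds for 12, namely Chmp1b, Kif5b, Matr3, Tmed7, Aldh7a1, Nedd4l, Zfp532, Gnal, Seh1l, Ctdp1, Rbfa and Tmx3. Their counts are uncertain, since the strand setting of the counting is not given in the sources used here. In 3 of them, Matr3, Tmed7 and Tmx3, an overlapping gene lies on the same strand.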

How the data were processed

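RNA-seq read counts of 7 XEN libraries were used. Per the submitters' processing notes, the tools were FastQC, STAR 2.7.9a and featureCounts 2.0.1, and the build was mm10 (GRCm38); the values the authors deposited are raw counts per gene. Strand setting, treatment of multi-mapping reads and annotation version were not given in the sources used here. Symbols, biotypes and GC content came from GENCODE M21 tables, and 334 of 337 members had the same ends there. Members and gene lists were chosen with earlier results of these data known.

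Counts were filtered (filterByExpr), TMM-scaled and tested with edgeR 4.0.16 (quasi-likelihood, robust, group as the only term, R 4.3.3) with Benjamini-Hochberg adjustment over 15331 genes and a threshold of 0.05; the scripts were tested on simulated data. SE is the log2 change divided by the root of F. Offsets and library values used robust regression (MASS) of log2 CPM deviations (prior count 2) on natural splines (4 degrees of freedom) of GC content and log2 length, fitted to autosomal genes. Windows were 10 Mb with at least 10 members.

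Named members are the 8 higher and 8 lower with the largest change per comparison with WT_EV under both fits (at least 2 CPM, no overlap of libraries), those that passed between the deletions, and up to 4 per list with the lowest p. They also include up to 3 from the highest and lowest windows and the 5 highest per length; the text names examples. Symbols of the Gm, Rik or clone kind were left out. Alternatives were DESeq2 1.42.0, RLE factors, no filter, a replicate block, each library left out, protein-coding members, a prior count of 0.5, members of at least 10 CPM and 5 Mb windows. Intervals of counting error were not used, and 2 WT_clone columns were not used here.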

Additional observations from a re-analysis of the deposited data

Results flagged for a closer look

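In all, 4 members differed between the deletions by the test of that difference itself, DXp_DXm against DXp. The log2 change was -1.96 for Garem1, -1.67 for Zfp397, -1.41 for Csnk1a1 and -1.37 for Chmp1b. In each, both DXp_DXm libraries lay below both DXp libraries. Their edgeR adjusted p-values were 0.0424, 0.0423, 0.0424 and 0.0464, and with 1 library left out they passed only without WT_EV replicate 3.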

How the results depend on the processing

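Deviations of samples with the same replicate number correlated at 0.20 between the deletions and at 0.04 to 0.06 with WT_EV, and no label ties a number to a shared source, so the numbers were not taken to pair samples. With a replicate block, which leaves 2 residual degrees of freedom, 84 members passed in DXp_DXm against DXp (5 higher, 79 lower; 10.3% of all genes passed) in place of 4. The DXp titles carry 2 numberings, and with the other one the block gave 5 (2 higher, 3 lower). That count was 82 with DESeq2, where 7.71% of all genes passed, 65 with no filter on low counts, 2 with offsets and 0 to 39 with 1 library left out: 39 without WT_EV replicate 3, and 0 without WT_EV replicate 1 or 2, either DXp replicate or DXp_DXm replicate 1. Without DXp_DXm replicate 2 it was 4 again, none of them among the first 4. Totals against WT_EV stayed within 1.5 times under every alternative, but members higher in DXp_DXm went from 153 to 94 with offsets. Median log2 changes in DXp, DXp_DXm and between the deletions were 1.36, 0.75 and -0.70 with RLE factors, 0.83, 0.22 and -0.56 with offsets, and 1.37, 0.83 and -0.66 over protein-coding members. With 1 library left out they were 1.04 to 1.39, 0.63 to 0.78 and -0.63 to -0.52. Library values without the correction are in the report. DXp replicates 1 and 2 and DXp_DXm replicates 1 and 2 stood at 0.38, 0.44, -0.15 and -0.13 over protein-coding genes and at 0.36, 0.42, -0.14 and -0.11 over members of at least 10 CPM. With a prior count of 0.5 DXp replicate 1 was at 0.41 and DXp_DXm replicate 1 at -0.14. Without the correction the sign turned for DXp_DXm replicate 1 (0.03) and replicate 2 (0.14), and WT_EV stood at -0.84, -0.87 and -0.65 and DXp at 0.72 and 0.73. With offsets the direction turned for Ctdp1 (0.55) and Rbfa (0.10) in DXp and for Apc (-0.53), Tcf4 (-0.54), Cep192 (-0.04) and Snx2 (-0.20) in DXp_DXm. The cause was not tested.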
